A study of Mus musculus with 24 samples.

Results

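The genes described here encode the subunits of the mitochondrial respiratory chain and the ATP synthase. They were taken as the protein-coding genes whose mouse GENCODE symbol starts with Nduf followed by a, b, c, s or v and a number, is Sdha, Sdhb, Sdhc or Sdhd, starts with Uqcr, with Cox and a digit between 4 and 8, or with Atp5, or starts with mt-. Cox8b, Cox7a1 and pseudogenes were left out. The files held 95 such genes among 49585 gene identifiers, of which 82 lie in the nuclear genome and 13 in mitochondrial DNA. By symbol, the nuclear genes comprised 37 of complex I, 4 of complex II, 8 of complex III, 16 of complex IV and 17 of complex V. The symbols also brought in a few genes with another role, such as Cox7a2l, which helps join complexes III and IV, and Ndufa4, now counted as a subunit of complex IV.

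The respiratory chain passes electrons from NADH (complex I) and succinate (complex II) through coenzyme Q, complex III and cytochrome c to oxygen at complex IV. The proton gradient made on the way drives ATP synthesis at complex V. Most subunits are made from nuclear genes and imported, while a small core is transcribed and translated inside the mitochondrion, so that both genomes must supply complexes I, III, IV and V. White fat has fewer mitochondria than brown fat or muscle, and its adipocytes use them for fatty acid handling and lipogenesis as well as for ATP.

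The study counted RNA in 24 stranded total RNA libraries from 6 groups of male C57BL/6J mice, each made from whole adipose tissue. Subcutaneous adipose tissue (SAT) gave 4 libraries from mice fed a high-fat diet (60% of energy as fat). Another 4 SAT libraries came from mice fed a low-fat diet (10%), and both diets lasted 20 weeks. A further 3 SAT libraries came from Azin2-/- mice and 5 from wild-type littermates. Epigonadal adipose tissue (GAT) gave 4 libraries from Azin2-/- mice and 4 from wild-type littermates. All mice of these genotype groups had eaten the 60% fat diet for 8 weeks. Azin2 encodes antizyme inhibitor 2, a regulator of polyamine synthesis, and every mouse of the genotype groups, wild-type included, was therefore on a high-fat diet. Beyond titles, replicate numbers and animal marks on some libraries, the labels do not state that libraries of a group come from separate animals. The p-values therefore measure the spread between these libraries. Some animal marks occur in both wild-type SAT and wild-type GAT, so these groups may share mice. The main fits treat all libraries as independent.

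Total counts ran between 31.96 and 46.62 megareads (Mreads) per library. Azin2 itself was at 6.73 to 11.5 counts per Mread (CPM) in Azin2-/- SAT and 14.6 to 26.0 CPM in wild-type SAT, and at 12.7 to 19.8 CPM in Azin2-/- GAT and 22.9 to 26.6 CPM in wild-type GAT. The labels do not say which part of the gene was deleted. Adipoq, a defining adipocyte gene, was at 763 CPM or more in every library. Several libraries also carried transcripts of other tissues. The summed CPM of 16 skeletal muscle genes was 73930 in Azin2-/- SAT replicate 2 and 65850 in wild-type SAT replicate 3 (the muscle-rich libraries below). It was 24430 in low-fat SAT replicate 5, 6808 in high-fat SAT replicate 6 and 1167 in low-fat SAT replicate 6. The other 19 libraries were at 218.5 CPM or less. The sum of 10 epididymal genes was 24790 CPM in low-fat SAT replicate 1, although this library is labelled SAT, and 5026 CPM in wild-type GAT replicate 3. Ucp1, the uncoupling protein of brown fat, was at 457 CPM in Azin2-/- SAT replicate 2 and at most 3.12 CPM elsewhere.

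Chain transcripts were abundant, and mitochondrially encoded ones took the larger share. The nuclear genes together took a median of 0.947% of all counts (range 0.742% to 1.73% over 24 libraries), and the mitochondrial genes 3.47% (range 2.40% to 7.92%). Levels between genes were compared as TPM, a level that sums to the same total in every library and divides by exonic length. The median level was 135 TPM for complex I genes, 246 TPM for complex II, 285 TPM for complex III, 196 TPM for complex IV and 171 TPM for complex V. The most abundant nuclear transcripts were Cox8a, a small subunit of complex IV, at 1140 TPM, and Atp5b, the catalytic beta subunit of the ATP synthase, at 1070 TPM. Cox7b2 and Cox8c, the pair of nuclear genes under 1 TPM, did not enter the main fits.

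Among the 13 mitochondrial genes, 7 were counted deeply and 6 were nearly uncounted. The first class held mt-Nd1, mt-Nd2, mt-Nd4, mt-Nd5 and mt-Nd6 (complex I), mt-Cytb (complex III) and mt-Co1 (complex IV), with mean counts per library between 1966 and 524200. The second held mt-Co2, mt-Co3, mt-Atp6, mt-Atp8, mt-Nd3 and mt-Nd4l, with mean counts between 5 and 149.0, although their neighbours are cut from the same precursor RNA. Of these 6, mt-Co2, mt-Co3, mt-Atp6, mt-Nd3 and mt-Nd4l shared at least 98.0% of their 50-base stretches with another annotated transcript, in each case most with a nuclear pseudogene (Gm28661 for mt-Co2, Gm28437 for mt-Co3). In mt-Atp8, the least counted of the 6, the shared portion was 0.0%. It was also 0.0% in mt-Nd1, mt-Cytb and mt-Nd6, whereas it was 51.1% in mt-Co1 and 62.2% in mt-Nd4. The sources used here do not give how reads that map to both copies were counted, and the part of this sharing in the low counts was not tested. The 6 genes are therefore uncertain as measures of mitochondrial transcripts. For the main fit of each comparison, the median over all mitochondrial genes is given below beside that over the 7 deeply counted ones. These 7 held 99.98% of all mitochondrial counts. Gene overlaps add a further limit, since mt-Atp8 runs into mt-Atp6, mt-Nd4l into mt-Nd4, and the opposite-strand mt-Nd6 (chrM:13552-14070 of GRCm38) into mt-Nd5 (chrM:11742-13565). Of the 82 nuclear genes, 11 shared over 10% of their 50-base stretches with a transcript annotated elsewhere, most of them with processed pseudogenes, and Atp5g2 shared the most (36.7%).

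**Figure D1:**
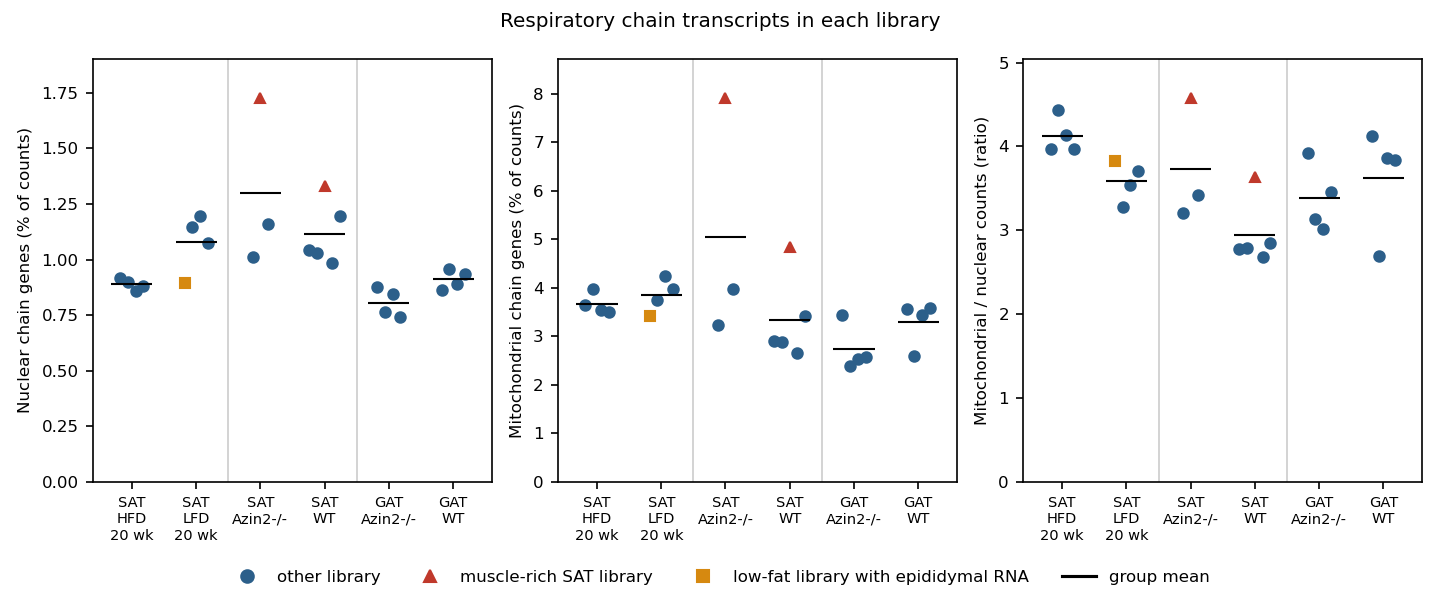
Share of all counts from nuclear chain genes (left, percent), from mitochondrial chain genes (centre, percent) and their ratio (right) in each of 24 libraries, with the group mean as a line. The 2 muscle-rich SAT libraries (triangles) are the highest of their groups in all 3 panels, and the high-fat libraries all lie above the low-fat libraries in the ratio.

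The nuclear genes moved closely together from library to library. Over the 24 libraries, the correlation of a nuclear gene with the mean of the other nuclear genes (log2 normalised CPM) had a median of 0.944, and 68 of 80 expressed genes were above 0.8. For the mitochondrial genes counted at least 10 times on average, the correlation with the same nuclear mean had a median of 0.802 over 11 genes. Without the 5 libraries with most muscle or epididymal transcripts among the SAT libraries (the muscle-rich ones, low-fat replicates 1 and 5 and high-fat replicate 6), the medians were 0.921 and 0.544 over 19 libraries. These values are descriptive, since all genes share the same libraries and scaling. The weakest followers over the 24 libraries were Cox6b2 (−0.132), Cox4i2 (−0.0445), Cox7a2l (0.0888) and Ndufa4l2 (0.171), which include isoforms of restricted tissues. Over the 19 libraries the weakest were Cox6a2 (−0.261), Atp5g1 (−0.246), Cox7a2l (−0.111) and Cox4i2 (0.184). Outside the chain, the genes most like the nuclear mean over 24 libraries were Coq9 (r = 0.978), needed to make coenzyme Q, then Bckdk (0.974), Idh3b (0.972), Pgm1 (0.971) and Mipep (0.970). This list changed wholly over the 19 libraries, to Echs1 (0.970), Aurkaip1 (0.969), Mcrip2 (0.960), Nudt13 (0.952) and Dnajc15 (0.944).

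Among the tissue isoforms, Cox6a2 was highest in the libraries with most muscle transcripts. Cox6a2, the heart and muscle form of subunit VIa, was at 124.9 normalised CPM in Azin2-/- SAT replicate 2, 143.7 in wild-type SAT replicate 3, 49.5 in low-fat replicate 5, 7.36 in high-fat replicate 6 and 2.98 in low-fat replicate 6. No other library exceeded 0.873. The left-out genes Cox8b and Cox7a1, forms enriched in brown fat, heart and muscle, were at 123.3 and 66.1 CPM in Azin2-/- SAT replicate 2, and at 50.8 and 36.8 CPM in wild-type SAT replicate 3. In the other 22 libraries Cox8b was at 2.004 to 31.6 CPM and did not order them by muscle transcripts: it was at 30.1 CPM in wild-type SAT replicate 5, with a muscle sum of 40.7 CPM, and at 10.01 CPM in high-fat replicate 6, with a muscle sum of 6808 CPM.

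Promoters of nuclear chain genes are classical targets of NRF1, a factor that binds a palindromic GC-rich motif. Promoter windows from RefSeq (GRCm38.p6; 250 bases before to 50 after the transcript start) matched 64 of the 82 nuclear genes. The motif GCGCNTGCG, searched on both strands, lay in 23 of these 64 (35.9%), against 7.12% of 27025 genes with such windows. The form GCGCATGCG lay in 8 of 64 (12.5%), against 1.95%. AAGATGGCG, resembling the YY1 motif, lay in 7 (10.9%, against 1.64%). CCGGAAGT, resembling the motif of ETS factors such as GABP, lay in 5 (7.81%, against 4.31%). CCAAT lay in 43.8% (against 41.1%) and TATAAA in 9.38% (against 15.7%), all on both strands. Every match of GCGCATGCG is also one of GCGCNTGCG, so those counts overlap. The 27025 genes were not matched to the chain genes in base composition or expression, so the excess may not be particular to the chain. The 6 windows that hold GCGCATGCG wholly upstream of the RefSeq start are shown to let the motif be seen in its setting. They give 100 bases each, 5′ to 3′ on the gene's strand, with the matched bases of either strand in capitals. In Uqcr11 the match spanned the RefSeq transcript start, and in Uqcrc1 it began 31 bases into the transcript. Gene bounds in GENCODE M21 differ. By these bounds the printed matches of Atp5g2 and Ndufa8 lie inside the gene, and that of Atp5k reaches into it.
Atp5g2 (chr15:102671048-102671147, minus strand, GRCm38.p6): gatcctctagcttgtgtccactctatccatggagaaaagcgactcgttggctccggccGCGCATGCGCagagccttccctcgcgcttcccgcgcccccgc
Atp5k (chr5:108434400-108434499, minus strand, GRCm38.p6): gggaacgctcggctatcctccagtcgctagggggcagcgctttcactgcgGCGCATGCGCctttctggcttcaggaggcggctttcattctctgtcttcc
Atp5l (chr9:44920893-44920992, minus strand, GRCm38.p6): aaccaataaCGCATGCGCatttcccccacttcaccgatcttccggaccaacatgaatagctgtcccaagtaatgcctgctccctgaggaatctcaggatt
Cox6a1 (chr5:115349066-115349165, minus strand, GRCm38.p6): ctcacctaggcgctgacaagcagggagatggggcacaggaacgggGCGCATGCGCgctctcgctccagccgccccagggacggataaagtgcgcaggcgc
Ndufa11 (chr17:56717657-56717756, plus strand, GRCm38.p6): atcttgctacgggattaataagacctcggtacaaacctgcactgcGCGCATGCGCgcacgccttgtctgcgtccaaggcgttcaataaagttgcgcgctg
Ndufa8 (chr2:36049339-36049438, minus strand, GRCm38.p6): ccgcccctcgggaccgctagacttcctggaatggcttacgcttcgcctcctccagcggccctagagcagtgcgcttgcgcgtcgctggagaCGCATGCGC
Atp5g2 encodes a c-ring subunit of the ATP synthase, and Atp5k and Atp5l its subunits e and g. Cox6a1 is the widely expressed form of subunit VIa, and Ndufa8 and Ndufa11 are accessory subunits of complex I. Such matches describe letters in a window and are not evidence of binding.

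After 20 weeks, nuclear chain transcripts were lower in SAT of high-fat mice than in SAT of low-fat mice, across all 5 complexes. Of 92 chain genes tested, 42 passed the test (edgeR quasi-likelihood, p adjusted over all genes by Benjamini-Hochberg, under 0.05), and all 42 fell, whereas 21.2% of the 17066 genes tested passed in either direction and 10.4% fell. They were 41 of 80 nuclear and 1 of 12 mitochondrial genes. By complex, 21 of 37 genes of complex I, 1 of 4 of complex II, 3 of 8 of complex III, 7 of 14 of complex IV and 9 of 17 of complex V fell. The median log2 fold change (high-fat over low-fat) was −0.39 for the nuclear genes and −0.30 for the mitochondrial genes, against −0.09 for all genes tested. In whole tissue, fewer cells of a type and less RNA per cell cannot be told apart.

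Low-fat replicate 1, the library with epididymal transcripts, held chain genes such as Sdhb below the high-fat level, and the counts depend on it. All high-fat libraries were below all low-fat libraries for 39 of 80 nuclear genes, and for 71 of 80 without it, against 16.0% and 26.9% of all genes, where 33.6% and 52.7% stood apart in either direction. Without it, 77 of 92 chain genes passed, of which 74 fell and 3 rose, beside a background of 47.0% of 17268 genes called. All 42 of the earlier calls were among the 77, of which they made 54.5%. The nuclear genes then gave 70 that fell and 2 that rose of 80 tested (median −0.44), and the mitochondrial genes 4 that fell and 1 that rose of 12 (median −0.30). Leaving out any one of the other 7 libraries gave between 17 and 25 calls, beside 10.3% to 16.9% of all genes. In 1 fit over all 24 libraries 19 chain genes passed, where 31.9% of all genes did, so that the excess over the background was not seen in that fit. Without all of low-fat replicates 1 and 5 and high-fat replicate 6, 69 passed, beside 38.5% of all genes. That fit kept low-fat replicate 6, with a muscle sum of 1167 CPM.

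In complex I, Ndufa7, an accessory subunit of the peripheral arm, had 64.2, 63.5, 63.5 and 66.4 normalised CPM in high-fat libraries, against 86.2, 89.9, 88.3 and 82.2 in low-fat libraries. The groups did not overlap (log2 fold change −0.44 ± 0.06 SE, adjusted p = 0.00295), as was the case for 33.6% of all genes tested in either direction. Ndufv2, an iron-sulphur subunit of the module that oxidises NADH, had 75.8, 73.8, 70.3 and 79.2 normalised CPM in high-fat libraries and 110.1, 113.4, 122.8 and 100.3 in low-fat libraries (−0.59 ± 0.08, adjusted p = 0.00317). Every high-fat library was again below every low-fat one. Ndufb8, an accessory subunit of the membrane arm, had 44.8, 44.9, 43.4 and 48.1 normalised CPM in high-fat libraries and 42.3, 67.7, 69.1 and 61.9 in low-fat libraries. The first low-fat library lay under all the high-fat ones, and the difference did not pass the test (−0.42 ± 0.14, adjusted p = 0.068) unless that library was left out (−0.55 ± 0.06, adjusted p = 0.000189).

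Complex II, which also belongs to the citrate cycle, showed the same split within the low-fat group. Sdha, its catalytic flavoprotein, had 400.0, 409.9, 415 and 423 normalised CPM in high-fat libraries and 428, 693, 708 and 607 in low-fat libraries, with no overlap (−0.57 ± 0.16, adjusted p = 0.0406). Sdhb, its iron-sulphur subunit, had 86.7, 88.1, 86.2 and 85.6 normalised CPM in high-fat libraries and 79.2, 168.5, 172.7 and 131.5 in low-fat libraries. The first low-fat library again lay below the high-fat ones (−0.68 ± 0.22, adjusted p = 0.0602; without that library −0.86 ± 0.09, adjusted p = 0.000131). All 4 genes of complex II passed without low-fat replicate 1, where 47.0% of all genes did.

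In complex III, Uqcr11, a small subunit, had 63.8, 63.1, 61.1 and 64.4 normalised CPM in high-fat libraries and 71.5, 86.9, 91.8 and 88.2 in low-fat libraries, with no overlap (−0.44 ± 0.08, adjusted p = 0.00871). Uqcrh, the hinge protein at the cytochrome c side, had 100.7, 91.9, 82.5 and 86.6 normalised CPM in high-fat libraries and 119.6, 116.4, 119.5 and 113.9 in low-fat libraries (−0.39 ± 0.09, adjusted p = 0.0174). Uqcrc2, a core subunit, had 143.4, 146.6, 146.0 and 148.6 normalised CPM in high-fat libraries and 148.5, 234.2, 241.2 and 203.5 in low-fat libraries (−0.51 ± 0.14, adjusted p = 0.0388). The groups of Uqcrh stood apart, while the first low-fat library of Uqcrc2 lay within the high-fat range.

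In complex IV, Cox6c, a small nuclear subunit, had 106.6, 100.9, 95.1 and 96.1 normalised CPM in high-fat libraries and 177.0, 150.4, 169.1 and 143.4 in low-fat libraries (−0.70 ± 0.10, adjusted p = 0.00368). Cox7c, another small subunit, had 72.5, 67.5, 60.6 and 66.2 normalised CPM in high-fat libraries and 81.1, 92.2, 94.9 and 92.3 in low-fat libraries (−0.45 ± 0.08, adjusted p = 0.00835), and it shared 22.1% of its 50-base stretches with other transcripts. Neither gene's groups overlapped. Cox4i1, the common form of subunit IV and the first to bind the mitochondrially made core, had 379, 382, 351 and 362 normalised CPM in high-fat libraries and 396, 491, 511 and 454 in low-fat libraries. It missed the threshold although the groups stood apart (−0.34 ± 0.11, adjusted p = 0.0621; without low-fat replicate 1, −0.40 ± 0.07, adjusted p = 0.00145).

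A pair of isoforms went the other way. Cox4i2, the form of subunit IV that replaces Cox4i1 in lung and under low oxygen, had 6.37, 5.70, 7.03 and 5.23 normalised CPM in high-fat libraries and 1.56, 4.22, 4.76 and 4.87 in low-fat libraries. Ndufa4l2, a paralogue of Ndufa4 induced by low oxygen in cultured cells, had 22.4, 20.7, 23.1 and 20.2 normalised CPM in high-fat libraries and 4.48, 17.6, 17.0 and 17.0 in low-fat libraries. Both were higher in every high-fat library than in any low-fat one, as were 17.6% of all genes tested. Of 80 nuclear chain genes, only these 2 were. Neither passed the test in all 8 libraries (0.65 ± 0.33, adjusted p = 0.192 and 0.62 ± 0.37, adjusted p = 0.262). Without low-fat replicate 1 both passed, Cox4i2 at 0.40 ± 0.13 (adjusted p = 0.0384) and Ndufa4l2 at 0.33 ± 0.07 (adjusted p = 0.00436). Without low-fat replicates 1 and 5, Cox4i2 did not pass (adjusted p = 0.0722), and without high-fat replicate 6 as well it did (adjusted p = 0.0492). Both genes are also expressed by cells of vessel walls. Of 8 endothelial markers, 1 rose in the main test, and their summed CPM was 1838 to 2029 in high-fat libraries and 507 to 1567 in low-fat libraries, with the lowest sum in replicate 1. Their part in the isoform values was not tested.

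In complex V, Atp5h, subunit d of the peripheral stalk, had 109.8, 106.2, 103.0 and 102.8 normalised CPM in high-fat libraries and 131.5, 153.7, 161.5 and 145.2 in low-fat libraries (−0.50 ± 0.08, adjusted p = 0.00491). Atp5e, the epsilon subunit, had 65.2, 61.0, 60.8 and 58.7 normalised CPM in high-fat libraries and 76.2, 82.0, 99.6 and 85.5 in low-fat libraries (−0.50 ± 0.09, adjusted p = 0.00736). In both, all high-fat libraries were the lower ones; Atp5h shared 19.9% of its 50-base stretches with other transcripts. Atp5a1, the alpha subunit, had 711, 747, 737 and 754 normalised CPM in high-fat libraries and 643, 935, 1011 and 859 in low-fat libraries, and did not pass (−0.24 ± 0.15, adjusted p = 0.287). Of the genes whose promoters are printed above, Atp5k (−0.49 ± 0.10, adjusted p = 0.0153), Atp5g2 (−0.41 ± 0.09, adjusted p = 0.017) and Atp5l (−0.28 ± 0.08, adjusted p = 0.0359) fell. Cox6a1 (−0.29 ± 0.15, adjusted p = 0.206), Ndufa11 (−0.25 ± 0.11, adjusted p = 0.136) and Ndufa8 (−0.05 ± 0.09, adjusted p = 0.704) did not pass.

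**Figure D2:**
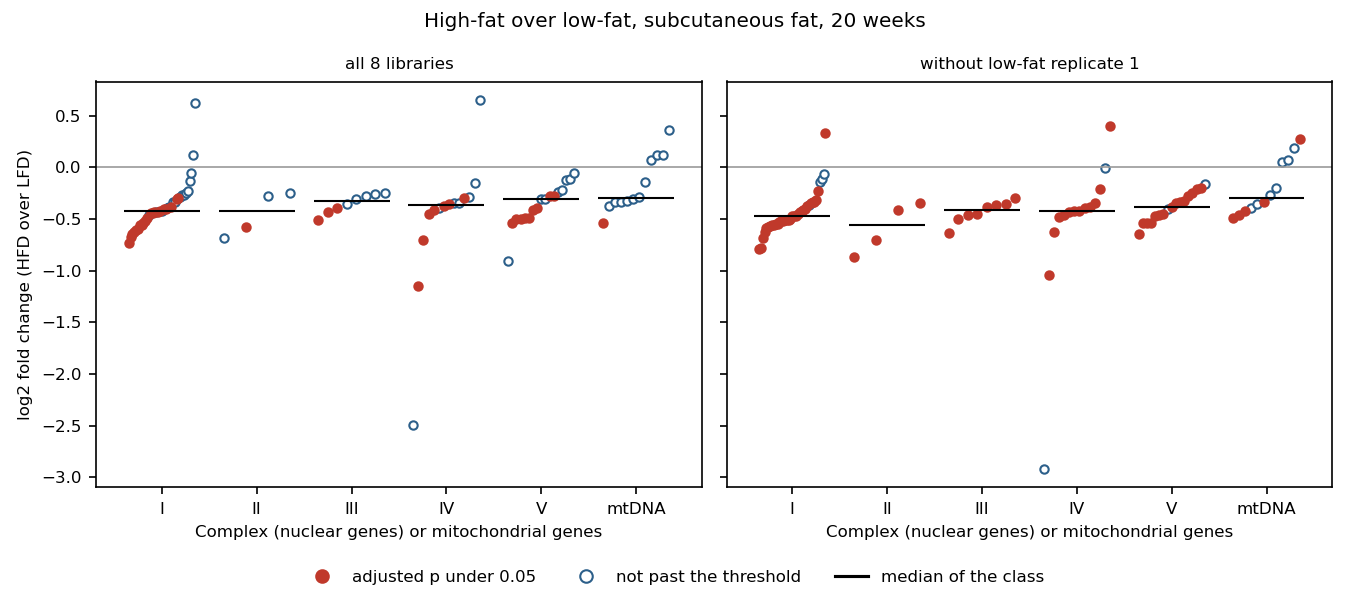
Log2 fold change, high-fat over low-fat SAT, of each tested nuclear gene by complex and of the mitochondrial genes, with all 8 libraries (left) and without low-fat replicate 1 (right). Filled points passed the test and lines are class medians; 42 of 92 genes passed on the left and 77 of 92 on the right, and 3 of the genes that passed on the right lie above 0.

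The mitochondrial genes did not share one direction under the diet. mt-Nd6, the complex I subunit transcribed from the other strand of the mitochondrial genome, had 48.7, 49.5, 42.5 and 48.5 normalised CPM in high-fat libraries and 72.8, 60.8, 73.2 and 64.6 in low-fat libraries, and it fell without overlap (−0.54 ± 0.10, adjusted p = 0.00787). mt-Nd2 had 4231, 4426, 4195 and 4105 normalised CPM in high-fat libraries and 2542, 3062, 3891 and 3566 in low-fat libraries. It was thus higher in every high-fat library, as were 17.6% of all genes tested, and passed only without low-fat replicate 1 (0.36 ± 0.18, adjusted p = 0.184; without that library 0.27 ± 0.09, adjusted p = 0.0298). mt-Co1, the catalytic subunit of complex IV, had 13240, 15220, 13240 and 13250 normalised CPM in high-fat libraries and 12840, 14950, 16820 and 15410 in low-fat libraries, with overlap (−0.14 ± 0.20, adjusted p = 0.634).

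mt-Cytb, the complex III core that carries electrons across the membrane, had 6106, 6736, 6046 and 6098 normalised CPM in high-fat libraries and 6451, 8131, 9063 and 8530 in low-fat libraries. It did not pass in all 8 libraries (−0.38 ± 0.19, adjusted p = 0.181) and fell without low-fat replicate 1 (−0.46 ± 0.07, adjusted p = 0.000987). mt-Nd4 (−0.42 ± 0.07, adjusted p = 0.00142) and mt-Nd5 (−0.33 ± 0.07, adjusted p = 0.00659) also fell without that library, while mt-Nd1 stayed near equal (0.07 ± 0.07, adjusted p = 0.441). Over the 7 deeply counted genes the median was −0.29 with all 8 libraries and −0.33 without low-fat replicate 1, with 5 negative and 2 positive values in both.

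The ratio of mitochondrial to nuclear chain counts was higher in every high-fat library than in any low-fat one. It was 3.98, 4.43, 4.14 and 3.97 in high-fat libraries and 3.82, 3.28, 3.55 and 3.70 in low-fat libraries. The nuclear share was 0.888% ± 0.025 of counts in high-fat libraries and 1.08% ± 0.131 in low-fat libraries (SD, n = 4 each), and 1.14% ± 0.061 in low-fat libraries without replicate 1 (n = 3). The mitochondrial share was 3.67% ± 0.216 in high-fat libraries and 3.85% ± 0.346 in low-fat libraries. These summed values are given without a test.

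Genes that build and serve the chain were described by counts of calls in lists whose members were chosen with earlier results of these data known. The background for these counts is again 10.4% of all genes fallen and 10.8% risen. Of 77 mitochondrial ribosomal protein genes tested, 24 fell and 0 rose (median log2 fold change −0.23). Of 47 assembly factors, 15 fell and 2 rose. Among those that fell were Uqcc3, a complex III factor (−0.67 ± 0.08, adjusted p = 0.00175), Ndufaf3, a complex I factor (−0.67 ± 0.09, adjusted p = 0.00295), and Cox14, which acts with newly made mt-Co1 (−0.57 ± 0.08, adjusted p = 0.0033). Those that rose were Sdhaf3 (0.62 ± 0.12, adjusted p = 0.0105) and Acad9 (0.38 ± 0.09, adjusted p = 0.0186). Of 13 coenzyme Q genes, 4 fell and 1 rose, with Coq4 at −0.85 ± 0.11 (adjusted p = 0.00221) and Coq10b at 0.48 ± 0.14 (adjusted p = 0.0466).

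Of 22 genes for mitochondrial transcription, replication and RNA handling, 7 fell and 0 rose. They included Twnk, the replicative helicase (−0.73 ± 0.14, adjusted p = 0.00986), and Tfam, the factor that packages mitochondrial DNA and starts its transcription (−0.29 ± 0.07, adjusted p = 0.0285). Of 13 biogenesis regulators tested, Ppargc1a, the coactivator PGC-1alpha, fell (−1.20 ± 0.31, adjusted p = 0.0323), and Gabpb1 rose (0.31 ± 0.09, adjusted p = 0.0408). Of 17 citrate cycle and pyruvate dehydrogenase genes, the pyruvate dehydrogenase genes Pdha1 and Pdhb fell and no other passed. Without low-fat replicate 1, 15 of these 17 fell and 1 rose, 51 of 77 mitochondrial ribosomal genes fell, and 29 of 47 assembly factors fell and 2 rose. In that setting 9 of 13 coenzyme Q genes fell and 1 rose, 11 of 22 transcription and RNA handling genes fell, and 6 of 13 biogenesis regulators fell and 3 rose, beside 47.0% of all genes called (23.5% fell and 23.5% rose). The chain members outside the rule (Ndufab1, Cyc1, Cycs, Cox7a1 and Cox8b) gave 0 calls with all 8 libraries and 3 that fell without low-fat replicate 1.

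Markers of other cells moved with the diet too. Of 10 macrophage markers, 9 rose and 0 fell, and their summed CPM was 1168 to 1476 in high-fat libraries and 329 to 486 in low-fat libraries. Of 10 white adipocyte markers, 3 fell (Cfd, Slc2a4 and Retn), and their sum was 25750 to 26530 CPM in high-fat libraries and 33010 to 36470 CPM in low-fat libraries other than replicate 1, where it was 10240 CPM. Without low-fat replicate 1, 7 of the 10 white adipocyte markers fell and 2 rose (median −0.85), and 10 of 10 macrophage markers rose. The part of the makeup of the tissue in the chain values was not tested.

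In SAT after 8 weeks of high-fat diet, no chain gene passed between Azin2-/- and wild-type mice. The count was 0 of 91 genes tested with edgeR's quasi-likelihood test, beside a background of 0.0059% of 16948 genes called. None of the 91 had an unadjusted p under 0.05, against 10.3% of all genes. DESeq2 and limma-voom also called 0 chain genes, against 1.99% and 1.76% of all genes. Of the tested genes, 78 of 80 nuclear and 11 of 11 mitochondrial genes had positive fold changes, with medians of 0.29 and 0.72 on the log2 scale against 0.01 for all genes. The groups did not stand apart for any chain gene, against 7.24% of all genes. Of the other lists, 0 of 77 mitochondrial ribosomal genes, 0 of 47 assembly factors and 0 of 17 citrate cycle genes passed.

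Both muscle-rich libraries were the highest of their groups. In Azin2-/- SAT, mitochondrial chain genes took 3.23%, 7.92% and 3.97% of counts in replicates 1 to 3, against 2.89%, 2.87%, 4.83%, 2.64% and 3.41% in wild-type SAT replicates 1 to 5. The muscle-rich libraries are the second Azin2-/- and the third wild-type one, and the first of them also had the high Ucp1 level given above. Without both, 0 of 90 chain genes passed (background 0.0463%), 5 had an unadjusted p under 0.05, as did 14.5% of all genes, and the medians were 0.09 for nuclear and 0.27 for mitochondrial genes. Without the Azin2-/- muscle-rich library alone they were −0.04 and 0.05.

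Ndufb6, the nuclear gene of smallest p and an accessory subunit of the complex I membrane arm, had 57.4, 97.0 and 60.2 normalised CPM in Azin2-/- SAT and 49.2, 48.2, 65.5, 46.1 and 56.5 in wild-type SAT (0.42 ± 0.19, adjusted p = 0.498). mt-Nd2, the mitochondrial gene of smallest p, had 3915, 10580 and 4373 normalised CPM in Azin2-/- SAT and 2663, 2715, 6181, 2248 and 3150 in wild-type SAT (0.88 ± 0.42, adjusted p = 0.524; without the muscle-rich libraries 0.62 ± 0.15, adjusted p = 0.182). Without the muscle-rich libraries, the remaining Azin2-/- values of both genes lay above all remaining wild-type values.

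mt-Co1 had 12690, 35390 and 15450 normalised CPM in Azin2-/- SAT and 10750, 10550, 21130, 10760 and 13890 in wild-type SAT (0.65 ± 0.37, adjusted p = 0.579). Sdhb had 109.4, 312 and 134.8 normalised CPM in Azin2-/- SAT and 112.2, 111.6, 195.3, 106.8 and 155.8 in wild-type SAT (0.43 ± 0.36, adjusted p = 0.71). In both genes the groups overlapped with and without the muscle-rich libraries, and without them Sdhb was at 0.01 ± 0.17 (adjusted p = 0.992). The fold changes of Ndufb8, Uqcrc2, Cox4i1 and Atp5a1 ran from 0.20 to 0.51 with all libraries and from 0.03 to 0.15 without the muscle-rich ones, and none passed.

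Without the muscle-rich libraries, 8 nuclear genes and 2 mitochondrial genes stood wholly above wild-type in Azin2-/- SAT and none wholly below, against 14.5% of all genes above and 12.3% below (26.8% in either direction). These were Atp5f1, Atp5o, Atp5mpl, Ndufa8, Ndufa11, Ndufb6, Ndufb7, Cox4i2, mt-Nd1 and mt-Nd2, and the nuclear share of 8 in 80 lies below that background. The ratio of mitochondrial to nuclear counts was 3.20 and 3.42 in the 2 remaining Azin2-/- libraries and 2.78, 2.79, 2.68 and 2.85 in the 4 remaining wild-type ones. The median over the 7 deeply counted mitochondrial genes was then 0.32, with all 7 positive, against 0.77 with all libraries. Ucp1 in the remaining Azin2-/- libraries was at 0.674 and 3.12 CPM, against 0.257 to 1.35 CPM in the wild-type ones. With 2 Azin2-/- libraries left, these are descriptions.

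**Figure D3:**
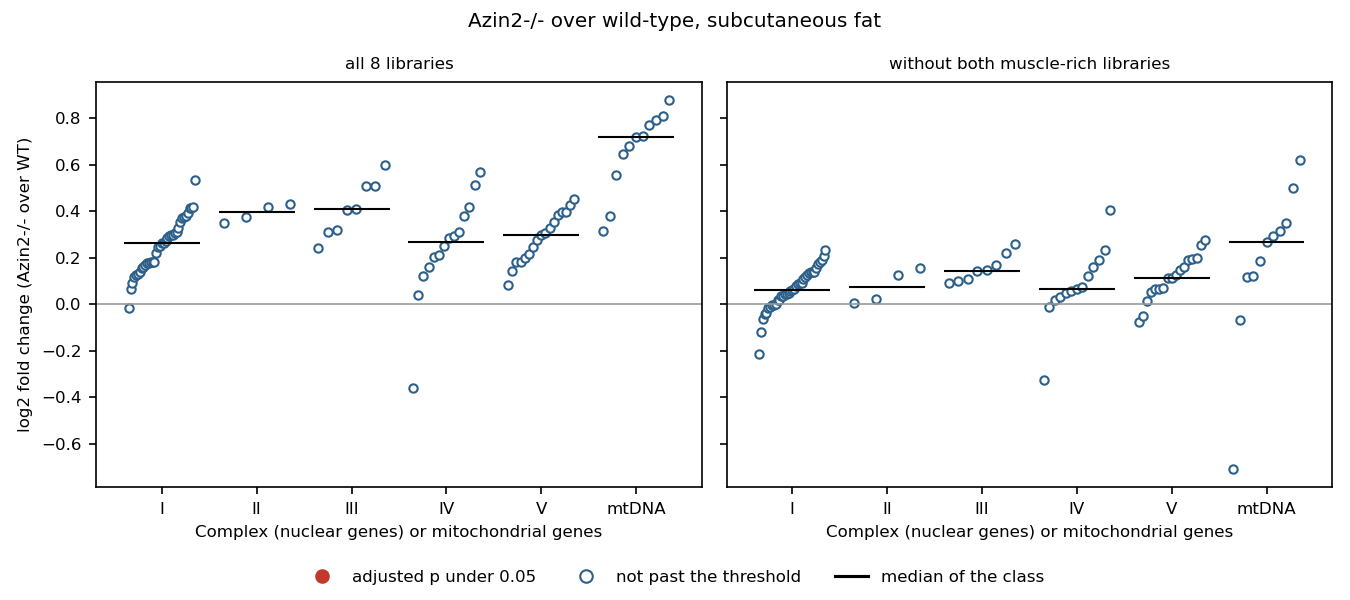
Log2 fold change, Azin2-/- over wild-type SAT, of each tested chain gene, with all 8 libraries (left) and without both muscle-rich libraries (right); lines are class medians. No point is filled, since none passed the test, and the nuclear median is 0.29 on the left and 0.09 on the right.

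In GAT the chain genes lay lower in Azin2-/- mice, again with none past the threshold. With edgeR's quasi-likelihood test 0 of 89 chain genes passed, while 6.77% of 16778 genes did (5.45% higher and 1.32% lower). An unadjusted p under 0.05 was reached by 30 of 79 nuclear and 0 of 10 mitochondrial genes, and by 28.7% of all genes. DESeq2 called 13 chain genes (18.4% of all genes) and limma-voom with sample weights 61 (38.5% of all genes). Without Azin2-/- replicate 1 edgeR called 11, beside 15.7% of all genes. Fold changes were negative for 75 of 79 nuclear genes and for 10 of 10 mitochondrial genes, with medians of −0.19 and −0.31 against −0.03 for all genes. Over the 7 deeply counted mitochondrial genes the median was −0.28. Complex I had the lowest nuclear median, −0.25.

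Ndufc2, a complex I subunit of the membrane arm and the nuclear gene of smallest p, had 49.5, 47.3, 49.96 and 41.1 normalised CPM in Azin2-/- GAT and 53.1, 61.8, 54.1 and 59.8 in wild-type GAT, without overlap (−0.30 ± 0.09, adjusted p = 0.0733). mt-Cytb, the mitochondrial gene of smallest p, had 5991, 3793, 4062 and 4094 normalised CPM in Azin2-/- GAT and 6548, 4695, 5884 and 6966 in wild-type GAT (−0.43 ± 0.19, adjusted p = 0.177). Its groups overlapped through the first Azin2-/- library, which lay above 2 of the 4 wild-type ones. Cox4i1 had 356, 298, 353 and 281 normalised CPM in Azin2-/- GAT and 324, 429, 495 and 409 in wild-type GAT, with overlap at the first wild-type library (−0.38 ± 0.15, adjusted p = 0.14).

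Ndufb8 (−0.33 ± 0.11, adjusted p = 0.0917) and Uqcrc2 (−0.19 ± 0.08, adjusted p = 0.166) were likewise short of the threshold, as was mt-Co1 (−0.31 ± 0.16, adjusted p = 0.25). Sdhb (−0.06 ± 0.12, adjusted p = 0.746) and Atp5a1 (−0.08 ± 0.08, adjusted p = 0.508) had values near 0. Of 79 nuclear genes, 6 were wholly lower in Azin2-/- GAT (Ndufb5, Ndufc2, Ndufs7, Ndufv1, Cox8a and Atp5j), against 6.34% of all genes.

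The mitochondrial share split each GAT group. It was 3.43%, 2.40%, 2.54% and 2.56% in Azin2-/- GAT and 3.55%, 2.58%, 3.45% and 3.59% in wild-type GAT, so that Azin2-/- replicate 1 lay with most wild-type libraries and wild-type replicate 2 with most Azin2-/- libraries. The ratio of mitochondrial to nuclear counts showed the same split, with 3.92, 3.14, 3.01 and 3.45 in Azin2-/- GAT and 4.12, 2.70, 3.87 and 3.83 in wild-type GAT. Azin2 was lower in each Azin2-/- library than in each wild-type one. Of 10 macrophage markers, 8 rose in Azin2-/- GAT, with sums of 1223, 2366, 2604 and 2044 CPM in Azin2-/- libraries and 948, 1022, 744 and 808 CPM in wild-type libraries, and the lowest Azin2-/- sum belonged to replicate 1. The part of these cells in the chain values was not tested. Of the lists of mitochondrial genes, 0 of 77 ribosomal genes and 0 of 47 assembly factors passed, and 1 gene each fell among the coenzyme Q genes, the biogenesis regulators and the citrate cycle genes.

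Wild-type GAT was set against wild-type SAT on the same 8-week diet. Some animal marks occur in both groups, but the libraries were tested here as independent. No chain gene passed (0 of 89, background 4.33% of 17030 genes), 26 nuclear and 0 mitochondrial genes had an unadjusted p under 0.05 (21.9% of all genes), and DESeq2 called 9 chain genes (10.5% of all genes). Medians (GAT over SAT) were −0.29 for nuclear and −0.18 for mitochondrial genes, against −0.01 for all genes. Without wild-type SAT replicate 3, the muscle-rich library, the nuclear median was −0.17 and the mitochondrial median turned to 0.10. Uqcrc1 then passed (−0.39 ± 0.08, adjusted p = 0.0391), beside 4.04% of all genes called. The median over the 7 deeply counted mitochondrial genes was −0.10 with all libraries and 0.13 without that one.

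Of 79 nuclear genes, 16 lay wholly lower in GAT than in SAT, and 17 did so without the muscle-rich library, against 5.53% and 7.35% of all genes. They included both large subunits of succinate dehydrogenase, Atp5a1, Atp5b, Uqcrc1 and Uqcrc2. Atp5g3, a c-ring subunit and the gene of smallest p, had 228, 249, 219 and 241 normalised CPM in GAT and 298, 303, 393, 269 and 353 in SAT (−0.46 ± 0.12, adjusted p = 0.0589). Sdhb had 79.8, 95.7, 74.0 and 101.1 normalised CPM in GAT and 112.2, 111.6, 195.3, 106.8 and 155.8 in SAT (−0.64 ± 0.20, adjusted p = 0.107). Neither gene's groups overlapped. mt-Co1 had 13030, 9852, 12920 and 14290 normalised CPM in GAT and 10750, 10550, 21130, 10760 and 13890 in SAT, with overlap (−0.10 ± 0.23, adjusted p = 0.833; 0.13 ± 0.16 without the muscle-rich library).

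Fold changes of Ndufb8, Uqcrc2, Cox4i1 and Atp5a1 ran from −0.49 to −0.18 between depots, and none passed. mt-Co3 had the smallest p of the mitochondrial genes (−0.42 ± 0.31, adjusted p = 0.453), and rests on fewer than 3 normalised CPM in all but 1 of these libraries. Wild-type GAT replicate 3 held epididymal transcripts, and its nuclear share of 0.891% lay within the 0.862% to 0.958% of its group, below the 0.986% to 1.33% of wild-type SAT. Of the other lists, 0 of 77 ribosomal genes and 0 of 47 assembly factors passed between depots, 1 citrate cycle gene fell, and 2 of 8 brown or beige adipocyte markers fell.

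**Figure D4:**
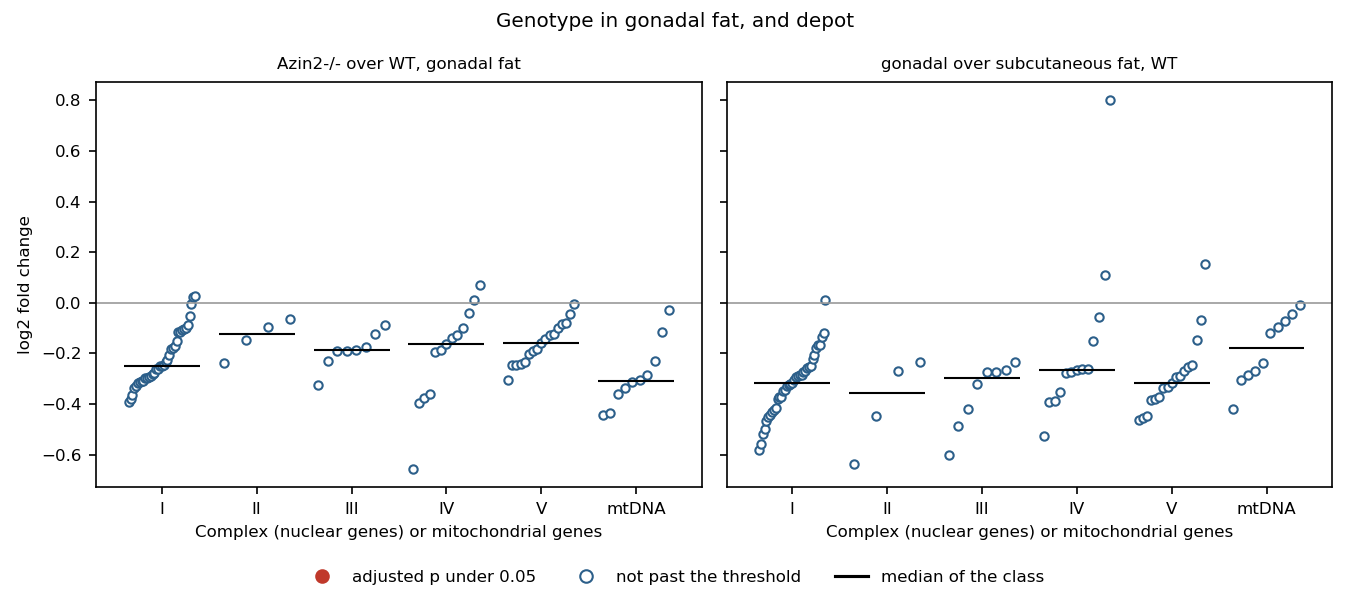
Log2 fold change of each tested chain gene in GAT of Azin2-/- over wild-type mice (left) and in wild-type GAT over wild-type SAT (right), by complex and for mitochondrial genes; lines are class medians. No point is filled, since none passed the test, and the nuclear medians are −0.19 and −0.29.

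The genotype effect in GAT minus that in SAT was negative for nearly all chain genes, and no gene passed. With edgeR's interaction test 0 of 91 chain genes and 0.0% of 18033 genes were called, 2016 genes (11.2%) had an unadjusted p under 0.05 (10 nuclear and 3 mitochondrial chain genes among them), DESeq2 called 0 chain genes (0.876% of all genes) and limma-voom 30 (15.1% of all genes). The medians were −0.49 for nuclear and −0.96 for mitochondrial genes (−0.996 over the 7 deeply counted ones), against −0.04 for all genes. Without both muscle-rich libraries they were −0.27 and −0.49, and 0 of 91 passed (background 0.0%). Cox8a, the nuclear gene of smallest p, had 193.8, 148.8, 179.6 and 161.0 normalised CPM in Azin2-/- GAT and 207.1, 234.7, 196.8 and 232.5 in wild-type GAT. In SAT it had 222.6, 261.7 and 261.9 normalised CPM in Azin2-/- and 225.1, 211.2, 216.2, 206.3 and 276.9 in wild-type. The difference of its genotype effects was −0.48 ± 0.16 (adjusted p = 0.346), and that of mt-Cytb was −1.25 ± 0.49 (adjusted p = 0.394; without the muscle-rich libraries −0.77 ± 0.29, adjusted p = 0.453). Those of Ndufb8, Sdhb, Uqcrc2, Cox4i1, Atp5a1 and mt-Co1 ran from −0.96 to −0.50 with all libraries and from −0.58 to −0.05 without the muscle-rich ones.

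**Figure D5:**
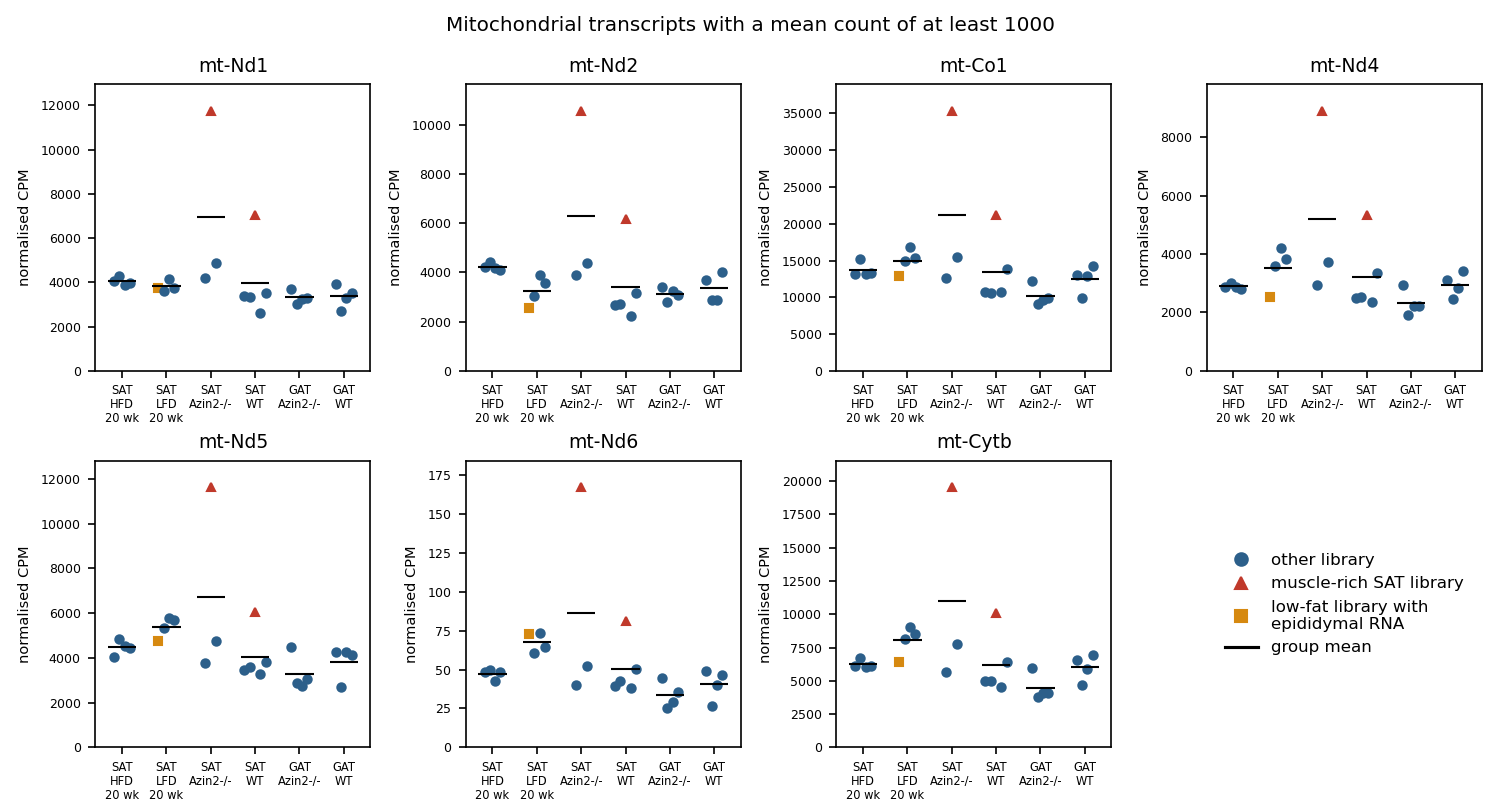
Normalised CPM of the 7 mitochondrial transcripts with a mean count of at least 1000, in each of 24 libraries by group, with the group mean as a line. The muscle-rich Azin2-/- SAT library (upper triangle) is the highest of all 24 for each of the 7, and mt-Nd2 is higher in all high-fat than in all low-fat libraries.

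Across the 6 groups the nuclear share of counts, without the muscle-rich libraries and low-fat replicate 1, was 0.888% in 20-week high-fat SAT, 1.14% in 20-week low-fat SAT, 1.08% in Azin2-/- SAT, 1.06% in wild-type SAT, 0.806% in Azin2-/- GAT and 0.912% in wild-type GAT. The SD within these groups was between 0.025 and 0.105. The mitochondrial share was 3.67% in 20-week high-fat SAT, 3.99% in 20-week low-fat SAT, 3.60% in Azin2-/- SAT, 2.95% in wild-type SAT, 2.73% in Azin2-/- GAT and 3.29% in wild-type GAT, with SD between 0.216 and 0.517. The nuclear share of Azin2-/- SAT and of wild-type SAT lay within this spread of each other. The 20-week and 8-week mice belong to separate experiments, and their values stand side by side without a comparison.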

How the data were processed

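RNA-seq of 24 libraries in 6 groups was analysed from the raw gene counts deposited by the authors. Per the submitters' processing notes, reads were handled with cutadapt, STAR and HTSeq 0.6.1p1 on GRCm38 (mm10), while the sources used here do not give the counting mode, strand setting or annotation release. Per the labels' protocols, libraries were stranded total RNA. Identifiers were named from GENCODE M21. From the counts, edgeR 4.0.16 (R 4.3.3) fitted each comparison on its own groups, with filterByExpr (minimum count 10, total 15), TMM scaling and a robust quasi-likelihood test, adjusted by Benjamini-Hochberg over all genes, with calls under 0.05. Normalised CPM uses TMM factors over all libraries, and TPM the union of exons. DESeq2 1.42.0 and limma 3.58.1 (voom with sample weights) served as alternatives, next to other scalings, no count filter, 1 fit over all libraries, and leaving out libraries.

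The totals of 31.96 to 46.62 megareads per library limit the precision of genes with few counts most. Single genes were named by a rule: in each complex and for mitochondrial genes the called members of smallest p, at most 2 per direction, or, with no call, the nuclear and the mitochondrial member of smallest p, beside Ndufb8, Sdhb, Uqcrc2, Cox4i1, Atp5a1 and mt-Co1 throughout and the tissue isoforms. Other members that are named were chosen after their values were seen. Members and gene lists were chosen with earlier results of these data known. Fits were tested on simulated counts. The minimum of 1000 counts for mitochondrial genes, and leaving out low-fat replicates 1 and 5 with high-fat replicate 6, were chosen after seeing the data.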

Additional observations from a re-analysis of the deposited data

Results flagged for a closer look

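Of 130 groups of values examined, 13 held a library far from the rest of its group, where chance alone gives about 1 in 20. The mitochondrial share was 3.429% in Azin2-/- GAT replicate 1 (others 2.395% to 2.562%), and 2.582% in wild-type GAT replicate 2 (others 3.445% to 3.59%). mt-Cytb was at 5991 normalised CPM in Azin2-/- GAT replicate 1 (others 3793 to 4094), and mt-Co3 at 2.081 in wild-type GAT replicate 1 (others 1.527 to 1.604), on few counts.

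Muscle-rich wild-type SAT replicate 3 stood apart in the ratio of mitochondrial to nuclear counts (3.636, others 2.682 to 2.85). The same library stood apart in Atp5a1 (1382 normalised CPM, others 777.8 to 881.5), mt-Nd2 (6181, others 2248 to 3150) and mt-Nd6 (80.97, others 38.24 to 50.33). Cox8a was at 276.9 normalised CPM in wild-type SAT replicate 5 (others 206.3 to 225.1).

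Of the 20-week libraries, high-fat replicate 4 was high in mt-Co1 (15220 normalised CPM, others 13240 to 13250) and mt-Cytb (6736, others 6046 to 6106). High-fat replicate 5 was low in mt-Nd6 (42.45, others 48.5 to 49.53), and low-fat replicate 1, with epididymal transcripts, was low in Ndufb6 (40.34, others 54.12 to 56.65).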

How the results depend on the processing

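Under the diet, 42 chain genes passed (21.2% of all genes). There were 76 with limma-voom (46.9% of all genes), 20 with no count filter (7.58%) and 19 in 1 fit over all libraries (31.9%). There were 74 without low-fat replicates 1 and 5 (42.2%) and 69 without high-fat replicate 6 as well (38.5%). Leaving out 1 library in turn gave 17 to 77 (10.3% to 47.0% of all genes). The labels do not say that a replicate number marks a shared litter or batch, so the numbers were not taken as pairs. Deviations of same-numbered libraries correlated at 0.529, −0.199 and −0.074 for numbers 3, 5 and 6. So few libraries cannot settle whether the numbers mark pairs. A replicate block over these numbers gave 67 calls (34.2% of all genes), and the same 6 libraries gave 74 with no block (40.1%). Between depots, a block over the animal marks found in both wild-type SAT and wild-type GAT gave 0 calls among all genes. The same libraries with no block gave calls for 0.0235% of all genes. Deviations of libraries with the same mark correlated at 0.149, −0.041 and −0.072. Whether a mark stands for a shared mouse was not tested.

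For the genotype in SAT, leaving out 1 library gave a nuclear median of −0.04 to 0.47 and a mitochondrial median of 0.054 to 1.01. Fold changes ran from −0.16 to 0.70 for Sdhb, −0.042 to 0.77 for Uqcrc2, −0.042 to 0.34 for Cox4i1 and −0.035 to 0.67 for Atp5a1. The lowest of each came without Azin2-/- replicate 2. In GAT, DESeq2 gave 13 calls (18.4% of all genes) and limma-voom 61 (38.5%, nuclear median −0.32). Leaving out 1 library gave 0 to 11 (0.0% to 15.7% of all genes), with Sdhb at −0.13 to 0.0073.

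Between depots, DESeq2 gave 9 calls (10.5% of all genes), limma-voom 5 (14.6%), and 1 fit over all libraries 1 (3.31%). Leaving out 1 library gave 0 to 1 calls (1.71% to 5.29% of all genes). The mitochondrial median was then −0.28 to 0.10 and mt-Co1 was at −0.17 to 0.13. With limma-voom mt-Co1 was at 0.11. For the difference of genotype effects, limma-voom gave 30 calls (15.1% of all genes). Leaving out 1 library gave medians of −0.67 to −0.13 (nuclear) and −1.24 to −0.26 (mitochondrial), with Sdhb at −0.76 to 0.11, and the mitochondrial median was −0.49 without both muscle-rich libraries. The nuclear share in high-fat SAT was 0.923% of counts without mitochondrial genes. The causes of these changes were not tested.

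Genes with few counts, the 6 thinly counted mitochondrial genes among them, are measured with little precision. Between 2 and 5 libraries per group leave differences undetected, and not only small ones. Of 100 genes changed 2-fold in simulated counts, 19 were recovered for the diet and 24 for the genotype in SAT. For the genotype in GAT, the depots and the difference of genotype effects, 52, 47 and 25 were recovered. Of 100 changed 4-fold, 59 to 86 were recovered. The changed genes were drawn from all genes tested, not from the chain genes.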
